A study of Mus musculus with 6 samples.

Results

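A set of 10 regulators of spermatogonial stem and progenitor cells, Zbtb16, Gfra1, Kit, Sall4, Dmrt1, Id4, Lin28a, Etv5, Sohlh1 and Sohlh2, were taken by symbol from a table of 38715 genes, and all 10 were found once. They were measured by RNA sequencing of whole mouse testis in 3 libraries titled Middle and 3 titled Control. The series text speaks of testes exposed to MES in early life and of control testes. No library is titled as exposed, so Middle was taken to be the MES-exposed group. The sources used here do not give strain, age at sampling, dose, or whether libraries came from separate animals. The p-values therefore cover the spread among these libraries alone, and that spread may be technical.

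Spermatogonia are the dividing germ cells on the wall of the seminiferous tubule. A small pool renews itself and is kept by GDNF, a growth factor of the surrounding somatic cells that signals through the receptor pair GFRA1 and RET. Retinoic acid then moves progenitors to the differentiating state, which is marked by the receptor KIT and needs the paired transcription factors SOHLH1 and SOHLH2. The stem-type genes were taken as Gfra1, Id4, Etv5, Zbtb16, Lin28a and Sall4 (6 genes), and the differentiating-type genes as Kit, Sohlh1 and Sohlh2 (3 genes). Dmrt1, known from both stages, was kept apart. Spermatogonia are a small part of the testis, and in bulk tissue fewer cells of a type and less RNA per cell cannot be told apart.

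None of the 10 genes changed between Middle and Control testes at an adjusted p of 0.05. Gfra1 excepted, the other 9 averaged higher in Middle, by ratios of mean level of 1.08 (Id4) to 1.34 (Sall4), and Gfra1 averaged lower, at a ratio of 0.828. The libraries of the groups were apart for 2 genes, Sall4 above and Gfra1 below Control, and overlapped for the other 8. Groups were likewise apart for 22.7% of the 25160 genes averaging 0.1 RPKM or more. For Gfra1 they overlapped once all reads of a gene that shares its exons were taken off, as a limit. Stem-type and differentiating-type genes did not part by type: 5 of 6 and 3 of 3 averaged higher in Middle.

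Levels are given as RPKM, reads scaled for gene length and for the total reads of the library, so they can be compared between genes. The test was limma on log2(RPKM + 1), with p-values adjusted over all genes tested. Id4, Etv5, Dmrt1, Sohlh1 and Sohlh2 were among the 15040 genes that averaged 1 RPKM or more in a group. The other 5 lay below that and were tested in a wider fit of 25160 genes that averaged 0.1 RPKM or more over the 6 libraries. The narrower fit called 0.0532% of genes (8) and 0 of the 5 members, none of which had an unadjusted p under 0.05, beside 20.7% of all genes tested. The wider fit called 0% of genes and 0 of the 10 members, again with 0 members at an unadjusted p under 0.05, beside 15.3% of all genes (3839). limma-voom, a count-based test on the reads recovered from the RPKM steps, called 0.109% of genes (26) and 0 members, and 1 of the 10 members, Etv5, had an unadjusted p under 0.05, beside 17.1% of all genes (4076).

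The libraries held 46649138 to 56435498 reads in Middle and 38820385 to 58389391 in Control. The members held 33 to 1645 reads per library. Middle libraries all lay above or all below Control libraries for 2 of the 10 members, beside 22.7% of the genes of the wider fit (13.4% above, 9.38% below). With 3 libraries against 3, an exact permutation test of a single gene cannot give a two-sided p below 0.1. Spermatid markers summed to 27080 to 29611 RPKM in Middle and 28824 to 31809 in Control. Spermatocyte markers summed to 2045 to 2085 RPKM in Middle and 2107 to 2153 in Control. The spermatid sums overlapped between groups, while the spermatocyte sums were apart. Several measures of the whole libraries differed between groups too. Mitochondrial transcripts took 1.18% to 1.58% of reads in Middle and 0.841% to 1.04% in Control. The log2 fold change of all 80 ribosomal protein genes was above 0 (median 0.25). The rank correlation of a library's deviation with transcript GC content was -0.071 to 0.47 in Middle and -0.31 to -0.23 in Control. The part of these differences in the members' values was not tested beyond the removal of the GC trend.

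**Figure D1:**
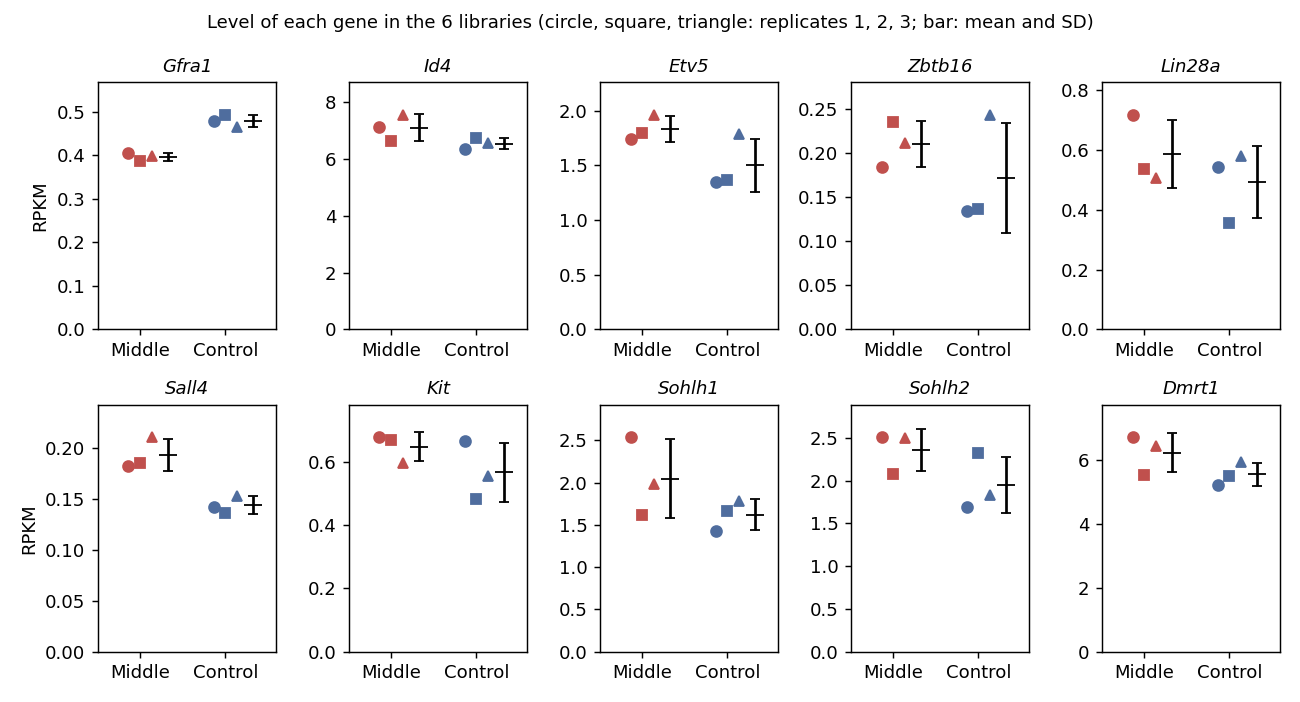
RPKM of each gene in the 3 Middle libraries (red) and the 3 Control libraries (blue); symbols mark replicates 1 to 3 and black bars the mean and SD of each group, with every axis starting at 0. Only Gfra1 and Sall4 show groups that do not overlap.

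The order of mean levels was the same in both groups. In Middle testes the means, from the highest to the lowest, were 7.11 RPKM for Id4, 6.23 for Dmrt1, 2.36 for Sohlh2, 2.04 for Sohlh1, 1.83 for Etv5, 0.647 for Kit, 0.587 for Lin28a, 0.397 for Gfra1, 0.210 for Zbtb16 and 0.193 for Sall4. In Control testes the same order ran over 6.55, 5.55, 1.95, 1.62, 1.501, 0.567, 0.493, 0.479, 0.172 and 0.144 RPKM. Sohlh2 overlapped Sohlh1, and Sohlh1 overlapped Etv5, in both groups, as did Kit with Lin28a and Zbtb16 with Sall4. Id4 and Dmrt1 overlapped in Middle and not in Control, while Lin28a and Gfra1 overlapped in Control and not in Middle. By level alone the stem-type genes were no class, since Id4 came first and Zbtb16 and Sall4 last. With all reads of its exon-sharing genes taken off, Id4 was at 2.79 RPKM in Middle and 2.80 in Control, below Dmrt1 in both groups. This is an extreme limit, since most bases of those genes lie outside Id4.

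Gfra1 encodes the GDNF co-receptor that marks the most primitive spermatogonia. It was at 0.405, 0.388 and 0.398 RPKM in Middle replicates 1 to 3, against 0.478, 0.494 and 0.466 RPKM in Control replicates 1 to 3. No Middle library reached the lowest Control library, and the spread within a group was small (CV 2.2% in Middle and 2.97% in Control). The libraries held 99 to 158 reads of Gfra1. Counting error at that depth is larger than these CVs, so the closeness is no measure of precision. The log2 fold change was -0.083 (SE 0.050, adjusted p = 0.459, limma), and on the voom scale, which adds no pseudocount of 1, it was -0.30 (95% confidence interval -0.64 to 0.036, adjusted p = 0.344). Counted as fragments, 163 in Middle and 198 in Control gave a ratio of 0.824 with an exact binomial interval of 0.666 to 1.02, which covers counting error only.

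Gfra1 shares exons with another gene. It lies on chromosome 19 (GRCm39, 58224036 to 58444341, minus strand), and 416 of its 5476 exonic bases are shared with Gm16277, a gene on the plus strand. These 416 bases are 62.8% of Gm16277, which held 29, 30 and 40 reads in Middle and 49, 81 and 41 in Control. The sources used here do not say how reads over shared exons were assigned. With all reads of Gm16277 taken off, as a limit, Gfra1 was at 0.293, 0.270 and 0.269 RPKM in Middle and 0.311, 0.241 and 0.273 in Control. The groups then overlapped, and the log2 fold change was 0.0030 (adjusted p = 0.982, limma).

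GDNF itself and the second receptor were read beside Gfra1. Gdnf was at 0.172, 0.140 and 0.164 RPKM in Middle and 0.193, 0.247 and 0.294 in Control, on 24 to 34 reads in Middle libraries and 38 to 53 in Control libraries. Middle lay below Control in all libraries, at a log2 fold change of -0.10 (SE 0.051, adjusted p = 0.38, limma). On the voom scale the value was -0.61 (95% confidence interval -1.20 to -0.011, adjusted p = 0.285). Ret, the signalling receptor that GFRA1 binds, was at 0.085 ± 0.020 RPKM in Middle and 0.072 ± 0.010 in Control (SD, n = 3 each), under both filters.

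Etv5, an ETS-family transcription factor that responds to GDNF and FGF signals and is also made by Sertoli cells, went the other way. It was at 1.74, 1.80 and 1.96 RPKM in Middle and 1.35, 1.37 and 1.78 in Control. Control replicate 3 lay inside the Middle range and the other 2 Control libraries below it. The log2 fold change was 0.18 (SE 0.091, adjusted p = 0.28, limma), and 0.29 on the voom scale (95% confidence interval 0.020 to 0.57, adjusted p = 0.264). Without Control replicate 3 it was 0.26 on the log2(RPKM + 1) scale (adjusted p = 0.345, limma). Etv5 lies on chromosome 16 (22200059 to 22258469, minus strand) and shares no exon with another gene.

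Id4, an inhibitor of DNA-binding factors whose high level marks stem cells, was at 7.12, 6.63 and 7.57 RPKM in Middle and 6.35, 6.74 and 6.56 in Control. Middle replicate 2 lay among the Control libraries, and the log2 fold change was 0.10 (SE 0.070, adjusted p = 0.412, limma). It was 0.18 with the GC trend removed and 0.060 without Middle replicate 3. Id4 (chromosome 13, 48414704 to 48419502, plus strand) shares 171 exonic bases with Gm49291 and part of them with A330033J07Rik, both on the minus strand. The shared bases are 7.4% of Gm49291 and 2.91% of A330033J07Rik, so most of the bases of both lie outside Id4. Taking off all their reads is therefore an extreme limit and no estimate of the Id4 level. With all reads of both taken off, Id4 was at 2.79 ± 0.43 RPKM in Middle and 2.80 ± 0.29 in Control (SD, n = 3 each), and its log2 fold change was -0.0063 (adjusted p = 0.977, limma).

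Zbtb16 (chromosome 9, 48565597 to 48747522, minus strand) encodes PLZF, a zinc finger repressor needed for stem cell upkeep. It was at 0.184, 0.235 and 0.211 RPKM in Middle and 0.135, 0.136 and 0.244 in Control, on 38 to 63 reads per library. The highest library of all 6 was Control replicate 3 and the lowest 2 were the other Control libraries. For Zbtb16 the log2 fold change was 0.048 (SE 0.056, adjusted p = 0.713, limma), and -0.0021 once each library's GC trend was taken out (adjusted p = 0.99, limma). Without Control replicate 1, 2 or 3 it was 0.026, 0.027 or 0.092.

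Sall4, a zinc finger factor that works with PLZF, was the other gene whose groups were apart. It was at 0.183, 0.186 and 0.211 RPKM in Middle and 0.142, 0.136 and 0.154 in Control, on 48 to 66 reads in Middle libraries and 33 to 44 in Control libraries. No Control library reached the lowest Middle library. The log2 fold change was 0.061 (SE 0.044, adjusted p = 0.531, limma), and 0.027 with the GC trend removed. On the voom scale it was 0.41 (95% confidence interval -0.092 to 0.91, adjusted p = 0.385). The fragments, 81 in Middle and 59 in Control, gave a ratio of 1.37 with an exact binomial interval of 0.971 to 1.96. Sall4 (chromosome 2, 168590252 to 168609863, minus strand) shares 526 exonic bases with Gm14261, which held 0 to 2 reads per library.

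Lin28a, an RNA-binding protein of progenitors that blocks let-7 maturation, was at 0.719, 0.536 and 0.506 RPKM in Middle and 0.543, 0.356 and 0.580 in Control. Middle replicate 1 was the highest and Control replicate 2 the lowest, and the other 4 libraries lay between 0.506 and 0.580 RPKM with the groups mixed. For Lin28a the log2 fold change was 0.089 (SE 0.086, adjusted p = 0.646, limma), and it was 0.021 without Control replicate 2 and 0.030 without Middle replicate 1. Lin28a (chromosome 4, 133730641 to 133746152, minus strand) shares 234 exonic bases with Gm13061, which held 1 to 5 reads per library.

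Kit, the receptor tyrosine kinase of differentiating spermatogonia, was at 0.678, 0.669 and 0.595 RPKM in Middle and 0.665, 0.480 and 0.555 in Control. Control replicate 1 lay among the Middle libraries. This gave a log2 fold change of 0.073 (SE 0.067, adjusted p = 0.626, limma), which was 0.033 without Control replicate 2 and 0.12 without Control replicate 1. In mouse testis Kit is also made by Leydig cells, and spermatids make a shorter transcript that starts inside the gene. The table gives 1 value for the whole gene (chromosome 5, 75735576 to 75817382, plus strand), so these sources are not separated. Of 9 Leydig cell markers 5 had a log2 fold change above 0, beside 52.9% of the genes of the wider fit, and none was at 0 RPKM in every library. Their summed levels were 303 to 336 RPKM in Middle and 274 to 329 in Control, and their part in the Kit value was not tested. Kitl, the Kit ligand of Sertoli cells, was at 0.693 ± 0.16 RPKM in Middle and 0.833 ± 0.13 in Control (SD, n = 3 each; adjusted p = 0.572, limma).

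Sohlh1 and Sohlh2 are germ cell bHLH factors that pair with each other. Sohlh1 was at 2.54, 1.61 and 1.98 RPKM in Middle and 1.42, 1.66 and 1.78 in Control. Middle replicate 1 stood well above the rest, and Middle replicate 2 lay inside the Control range. The log2 fold change was 0.21 (SE 0.12, adjusted p = 0.34, limma) and 0.093 without Middle replicate 1 (adjusted p = 0.653, limma). Without Middle replicate 2 it was 0.31, and with the GC trend removed 0.12. Sohlh2 was at 2.51, 2.08 and 2.496 RPKM in Middle and 1.69, 2.32 and 1.83 in Control. Control replicate 2 lay above Middle replicate 2, and the log2 fold change was 0.19 (SE 0.10, adjusted p = 0.306, limma). Sohlh1 lies on chromosome 2 (25733007 to 25737260, minus strand) and Sohlh2 on chromosome 3 (55089449 to 55117378, plus strand), with no exon shared. Both genes were lowest in Control replicate 1 and highest in Middle replicate 1.

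SOHLH1 and SOHLH2, as bHLH factors, recognise E-boxes with the letters CANNTG, which read the same on both strands, and in mouse they are known to act on Kit. The 250 bases before the start of Sohlh1, Sohlh2, Kit and Gfra1 are shown because these genes hold both ends of the stem-to-differentiating step. The sequences are RefSeq's on GRCm38.p6, 5′ to 3′ on the gene's strand, with E-boxes in capitals. Sohlh1 is at chr2:25847249-25847498 (minus strand), Sohlh2 at chr3:55181794-55182043 (plus strand), Kit, from the first of its listed starts, at chr5:75574737-75574986 (plus strand) and Gfra1 at chr19:58455399-58455648 (minus strand).
Sohlh1: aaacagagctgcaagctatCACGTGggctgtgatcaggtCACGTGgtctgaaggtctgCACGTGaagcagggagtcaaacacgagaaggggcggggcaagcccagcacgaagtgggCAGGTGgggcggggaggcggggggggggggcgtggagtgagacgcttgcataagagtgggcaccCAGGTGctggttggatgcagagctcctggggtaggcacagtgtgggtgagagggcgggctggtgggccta
Sohlh2: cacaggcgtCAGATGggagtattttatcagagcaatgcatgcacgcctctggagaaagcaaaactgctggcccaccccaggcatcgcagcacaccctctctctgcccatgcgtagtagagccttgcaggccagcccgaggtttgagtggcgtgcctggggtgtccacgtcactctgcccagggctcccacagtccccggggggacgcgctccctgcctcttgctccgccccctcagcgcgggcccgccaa
Kit: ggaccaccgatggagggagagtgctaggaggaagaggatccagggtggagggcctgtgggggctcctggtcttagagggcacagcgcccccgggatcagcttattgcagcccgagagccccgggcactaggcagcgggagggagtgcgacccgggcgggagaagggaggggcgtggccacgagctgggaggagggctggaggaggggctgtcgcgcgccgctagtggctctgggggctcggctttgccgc
Gfra1: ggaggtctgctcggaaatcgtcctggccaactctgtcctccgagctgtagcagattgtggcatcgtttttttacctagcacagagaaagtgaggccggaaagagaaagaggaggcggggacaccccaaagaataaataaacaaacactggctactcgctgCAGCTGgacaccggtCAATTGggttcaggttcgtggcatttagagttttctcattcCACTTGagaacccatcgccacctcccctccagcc

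The Sohlh1 window held 5 E-boxes, of which 3 were CACGTG, a form that CANNTG includes. The Sohlh2 window held 1, the Gfra1 window 3, none of them CACGTG, and the Kit window 0. Over 32536 windows of 250 bases before RefSeq starts, 66.2% held at least 1 CANNTG, 12.2% at least 3 and 1.14% at least 5, and 0.0615% held at least 3 CACGTG. The CACGTG count was looked at after the sequences were seen. RefSeq windows matched 7 of the 10 members, the others being Zbtb16, Sall4 and Dmrt1. These letters describe the windows and do not show binding.

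Dmrt1, a DM-domain factor that holds spermatogonia back from meiosis and is also made by Sertoli cells, was at 6.72, 5.55 and 6.43 RPKM in Middle and 5.23, 5.49 and 5.94 in Control. Middle replicate 2 lay among the Control libraries, and the log2 fold change was 0.14 (SE 0.085, adjusted p = 0.359, limma). It was 0.058 with the GC trend removed, and without Middle replicate 1 or 2 it was 0.092 or 0.21. It lies on chromosome 19 (25482982 to 25581693, plus strand) and shares no exon. Of 17 Sertoli cell markers 16 had a log2 fold change above 0 (median 0.079), beside 52.9% of the genes of the wider fit. In 4 all Middle libraries lay above all Control libraries, beside 13.4% of those genes. None of the markers was at 0 RPKM in every library. Their summed level was 342 to 383 RPKM in Middle and 322 to 332 in Control. Their part in the values of Dmrt1 and Etv5 was not tested.

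**Figure D2:**
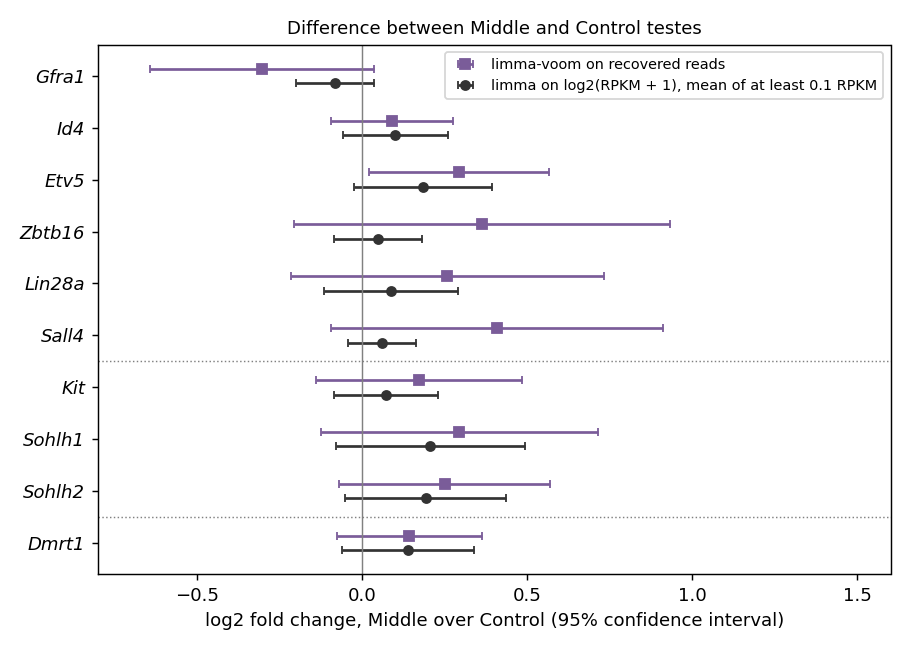
Log2 fold change of each gene, Middle over Control, with 95% confidence intervals, for limma on log2(RPKM + 1) in the wider fit (circles) and limma-voom on recovered reads (squares); dotted lines part stem-type genes, differentiating-type genes and Dmrt1. All intervals include 0 except that of Etv5 on the voom scale, and low genes such as Sall4 and Zbtb16 have a larger fold and a wider interval there.

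The question set by the 2 kinds of genes was whether Middle testes leaned towards stem or differentiating expression. The mean log2(RPKM + 1) of the 6 stem-type genes minus that of the 3 differentiating-type genes was -0.42, -0.24 and -0.30 in Middle replicates 1 to 3, against -0.20, -0.31 and -0.18 in Control replicates 1 to 3. The groups overlapped, and the difference of -0.091 came beside SDs of 0.093 in Middle and 0.066 in Control (n = 3 each), with no test since the genes were chosen. Without Middle replicate 1 it was -0.041. On the log2(RPKM + 1) scale the median log2 fold change was 0.075 for stem-type and 0.19 for differentiating-type genes. With a smaller pseudocount of 0.1 the medians were 0.22 for stem-type and 0.27 for differentiating-type genes. On the voom scale the order of the medians turned, at 0.28 for stem-type and 0.25 for differentiating-type genes. The difference of the mean-based score kept its sign on the voom scale, at -0.072. The median of all 10 members was 0.095 on the log2(RPKM + 1) scale beside 0.0090 over the 25160 genes of the wider fit, and 9 of 10 lay above 0 beside 52.9% of those genes. The members share their libraries, so these shares are descriptions only.

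Gfra1 was also set against each of the other members. The ratio of Gfra1 to Kit was 0.597, 0.580 and 0.669 in Middle and 0.719, 1.03 and 0.839 in Control. The ratio of Gfra1 to Id4 was 0.0569, 0.0585 and 0.0526 in Middle and 0.0753, 0.0733 and 0.0710 in Control. Groups were apart for the ratio to 8 of the other 9 members, Zbtb16 being the exception. Gfra1 itself was lower in every Middle library and the other 9 averaged higher, so this count adds little. How often the ratio of Gfra1 to any other gene was apart was not computed. Gfra1 was picked for this after its values were seen, the 9 ratios share it, ratios among the other members were not computed, and reads of Gm16277 were not taken off here.

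**Figure D3:**
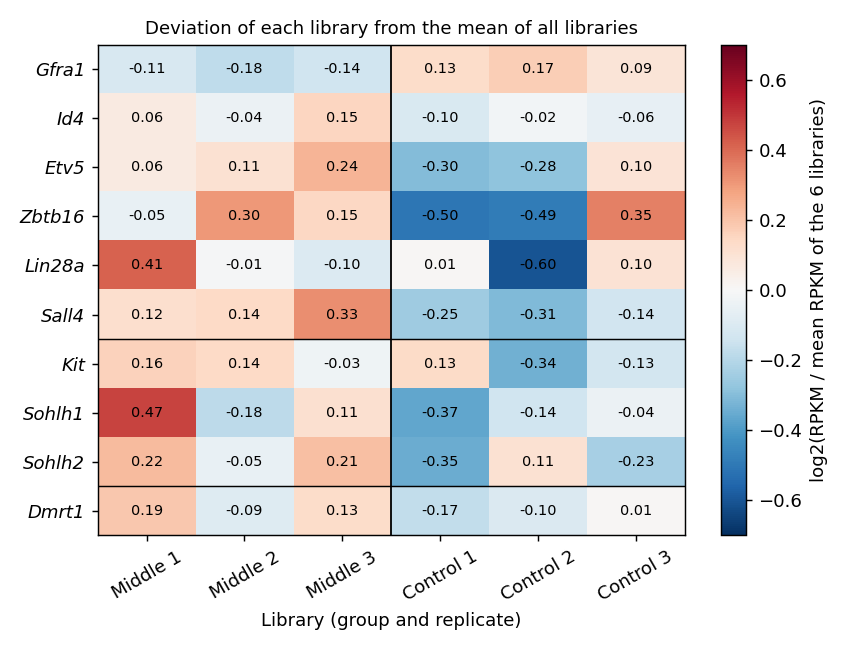
Deviation of each library from the mean of the 6 libraries for each gene, as log2(RPKM / mean RPKM), with Middle libraries left and Control libraries right; red is above and blue below the mean. Gfra1 is blue in all 3 Middle libraries and Sall4 red in all 3, and of the other 8 genes Etv5 alone is red in all 3 Middle libraries, while Control replicate 3 is red for it too.

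The libraries did not contribute evenly. Middle replicate 1 was the highest library for 5 members (Kit, Dmrt1, Lin28a, Sohlh1 and Sohlh2) and Middle replicate 3 for 3 (Sall4, Id4 and Etv5). Middle replicate 2 was highest for 0 members. Control replicate 1 was the lowest for 6 members and Control replicate 2 for 3. Control replicate 3 was lowest for 0, and its median deviation of -0.016 was close to that of Middle replicate 2, -0.026 (log2 of RPKM over the mean of all libraries). Middle replicate 1 also stood apart over all genes of the narrower fit. Its deviation correlated with GC content at 0.47, against 0.021 and -0.071 in Middle replicates 2 and 3. How often each library was highest or lowest over all genes was not computed, so these counts cannot be read as particular to the members.

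Other genes of the same cells were taken from 3 lists. Of 38 genes of undifferentiated spermatogonia 25 passed the filter of the wider fit, 14 lay above 0 and 11 below (median 0.020). Of these 25, 0 passed the test (limma, 3 at an unadjusted p under 0.05, beside 15.3% of all genes). The voom fit tested 29 of the 38 and called 0, with 3 at an unadjusted p under 0.05, beside 17.1% of all genes. In 4 of the 25 genes all Middle libraries lay above Control and in 1 below, beside 13.4% and 9.38% of all genes of the wider fit. The smallest adjusted p in the wider fit were those of Sox3, a transcription factor of progenitors, and Cd9, a surface tetraspanin, both named after their values were seen. Sox3 averaged 0.984 RPKM in Middle and 0.539 in Control (log2 fold change 0.37, adjusted p = 0.259, limma). Cd9 averaged 0.966 RPKM in Middle and 0.632 in Control (log2 fold change 0.27, adjusted p = 0.263, limma). Lhx2, a LIM homeobox factor, was at 2.81 ± 0.12 RPKM in Middle and 3.42 ± 0.22 in Control (SD, n = 3 each), with all Middle libraries lower (adjusted p = 0.187 in the narrower fit and 0.272 in the wider one, limma). Phf13, a chromatin reader needed for stem cell upkeep in mouse, was at 16.1 ± 0.40 and Egr4, a zinc finger factor, at 1.63 ± 0.16 RPKM in Middle, against 14.6 ± 0.95 and 1.48 ± 0.030 in Control (SD, n = 3 each). Dnd1, a germ cell RNA-binding protein, was at 1.19 ± 0.084 RPKM in Middle and 1.37 ± 0.19 in Control (SD, n = 3 each). Nanos2, an RNA-binding protein of stem cells, held 0 to 2 reads in any library.

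Of 22 genes of differentiating spermatogonia all 22 passed that filter, 12 lay above 0 and 10 below (median 0.026), and 0 passed the test (limma, 7 at an unadjusted p under 0.05, beside 15.3% of all genes; voom 0 and 7, beside 17.1%). In 7 of the 22 genes all Middle libraries lay above Control and in 2 below, beside 13.4% and 9.38% of all genes of the wider fit. The 4 with the smallest p in the narrower fit were all higher in every Middle library, so none of the 10 genes below 0 is named here. Stra8, which retinoic acid induces at entry into meiosis, was at 12.1, 9.17 and 10.4 RPKM in Middle and 7.64, 8.36 and 8.46 in Control (log2 fold change 0.33, SE 0.099, adjusted p = 0.178 in the narrower fit and 0.263 in the wider one, limma). Rhox13, an X-linked homeobox gene, was at 12.4, 9.91 and 9.55 RPKM in Middle and 7.60, 7.64 and 9.35 in Control. Crabp1, which binds retinoic acid in the cytosol, was at 8.55 ± 1.04 RPKM in Middle and 6.22 ± 1.57 in Control, and the homeobox gene Esx1 at 6.41 ± 0.62 in Middle and 4.71 ± 0.56 in Control (SD, n = 3 each). These 4 were picked for their p, so that they were apart adds nothing.

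Of 18 genes of niche signals and retinoic acid enzymes 14 passed that filter, 8 lay above 0 and 6 below (median 0.016). Of these 14, 0 passed the test (limma, 1 at an unadjusted p under 0.05, beside 15.3% of all genes). The voom fit tested 16 of the 18 and called 0, with 2 at an unadjusted p under 0.05, beside 17.1% of all genes. Aldh1a2, which makes retinoic acid, was at 69.2 ± 3.99 RPKM in Middle and 62.5 ± 2.55 in Control, and Aldh1a1, a related enzyme, at 46.99 ± 8.45 in Middle and 39.2 ± 2.05 in Control (SD, n = 3 each). Cyp26b1, which breaks retinoic acid down, was at 4.53 ± 0.61 RPKM in Middle and 3.63 ± 0.32 in Control (SD, n = 3 each; adjusted p = 0.222 in the narrower fit and 0.314 in the wider one, limma). Nrtn, a GDNF-family ligand, was at 1.74 ± 0.21 RPKM in Middle and 1.68 ± 0.21 in Control (SD, n = 3 each). Aldh1a1, Aldh1a2 and Cyp26b1 all averaged higher in Middle without passing the test, and all were named for their small p. The groups overlapped for Aldh1a1 and Cyp26b1. For Aldh1a2 the lowest Middle library, at 65.7 RPKM, lay just above the highest Control library, at 65.4 RPKM.

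The markers of other cells were read in the same way, and 0 genes of these lists passed limma or voom at an adjusted p of 0.05. Log2 fold changes lay above 0 for 6 of 7 peritubular myoid, 6 of 7 macrophage and 4 of 5 endothelial genes that passed the filter of the wider fit. They lay above 0 for 5 of 12 spermatocyte, 3 of 12 spermatid and 4 of 10 general germ cell genes. Over all genes of the wider fit the share above 0 was 52.9%. The part of these cells in the values of the 10 regulators was not tested.

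**Figure D4:**
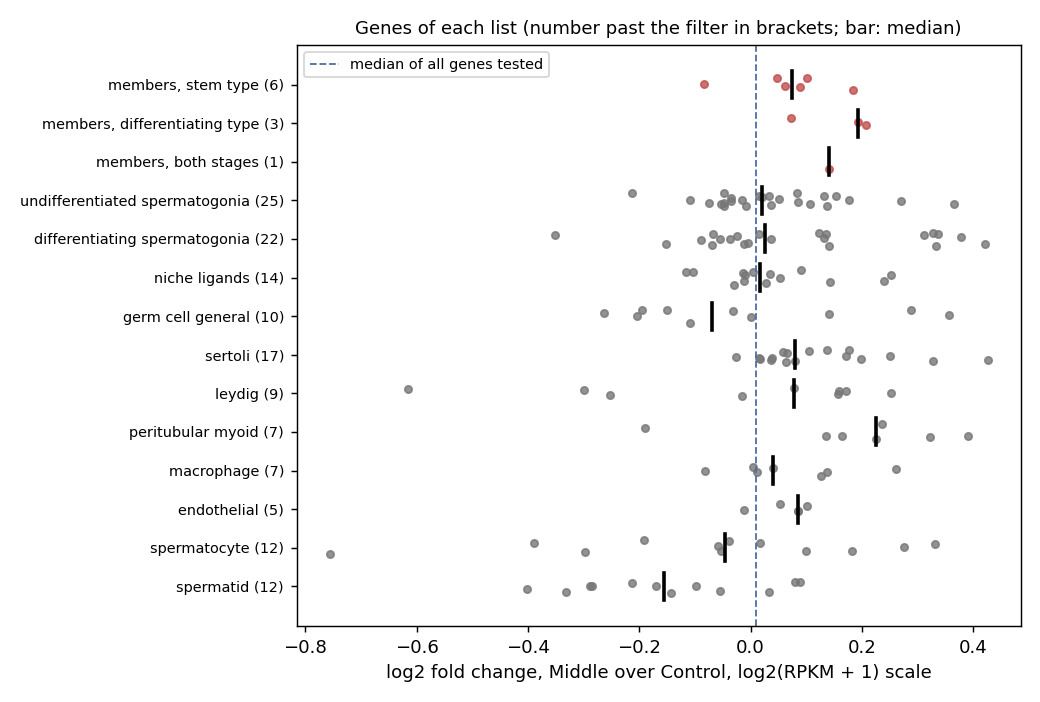
Log2 fold change, Middle over Control, on the log2(RPKM + 1) scale for the genes of each list that passed the filter of the wider fit, with the 10 regulators in red and bars at the medians; the dashed line is the median of all genes tested, 0.0090. The medians of the spermatogonium lists, 0.020 and 0.026, lie close to that line. Further off lie, among others, those of the peritubular myoid (0.22), endothelial (0.085), Sertoli (0.079), Leydig (0.078) and spermatid (-0.16) lists.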

How the data were processed

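The deposited table held RPKM values that the authors had computed per gene and library, with gene lengths, exons and coordinates; its header names no unit, and the unit was taken from the values. The submitters' processing notes name fastp 0.23.0 and the build GRCm39; per the labels' protocols, Trizol RNA went into an mRNA library kit. The sources used here do not give the aligner, counting program or strandedness. RPKM multiplied by gene length gave whole multiples of 1 step per library for 100% of values (tolerance 0.001), so reads were recovered; even numbers made up 73.3% to 74.7% of low values, so 2 reads were taken as 1 fragment. Libraries of a group differed by more than sampling noise (chi-square per degree of freedom 6.26 to 34.4). This was computed on reads, and with 2 reads to 1 fragment sampling noise alone would give a value nearer 2 than 1.

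limma 3.58.1 (R 4.3.3) with a trend compared Middle with Control on log2(RPKM + 1), two-sided, Benjamini-Hochberg adjusted, threshold 0.05, for genes averaging 1 RPKM or more in either group; 23675 genes were left out. The 5 members below that are reported from the filter of 0.1 RPKM over all libraries. Fold changes on this scale understate those of low genes. limma-voom used reads with at least 10 in 3 libraries and TMM factors. Fits were tested on simulated data. Intervals on fragments are 95% exact binomial and cover counting error only. Transcript GC (GENCODE M21, by symbol) was known for 93.1% of tested genes. The named genes were all members, up to 4 genes with the smallest p of each of 3 lists among genes tested in the 1 RPKM fit, and Gdnf, Ret, Nanos2, Kitl and Stra8. Sox3 and Cd9, below that fit's filter, were added after their values were seen. Members and the 14 lists were chosen with earlier results of these data known.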

Additional observations from a re-analysis of the deposited data

How the results depend on the processing

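No member passed the threshold under any alternative: over 160 refits of the 10 members the smallest adjusted p was 0.149 (limma), and 156 kept the direction. The 4 that turned were Zbtb16 with the GC trend removed, with or without the replicate block (-0.0021 in both), and, with the reads of exon-sharing genes taken off, Gfra1 (0.0030) and Id4 (-0.0063); the cause was not tested. That subtraction and the filter of 0.1 RPKM with a pseudocount of 0.1 were chosen after seeing the data. A change of filter alone, the replicate block and, for members sharing no exon, that subtraction cannot move a log2 fold change. The 156 therefore includes refits whose direction was fixed in advance. Over all genes, 8 were called. The count was 0 with the filter of 0.1 RPKM, with no filter, with the replicate block and with that block and the GC trend removed, 26 with limma-voom, and 0 to 3 with 1 library left out (3 without Control replicate 1, 1 without Middle replicate 1, otherwise 0). Beside 0, 3839, 4204, 2267 and 2199 genes had an unadjusted p under 0.05 in these 4 fits. Same-numbered libraries deviated with correlations of -0.15, -0.12 and 0.0054, and differently numbered ones with -0.091 to 0.16. These values show no pairing by number. Since the deviations are from means of 3 libraries, they cannot exclude a pairing or a shared batch. The stem-type minus differentiating-type difference of -0.091 kept its sign under the alternatives run, of which the filters and the replicate block cannot change it. It had a range of -0.13 to -0.041 with 1 library left out, the smallest size without Middle replicate 1. Median-of-ratios and upper-quartile scaling turned no member. Depth limits Sall4 and Zbtb16 most, at 33 to 66 reads per library.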
